A study of Mus musculus with 7 samples.

Results

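Runx1, Runx2 and Runx3 encode the RUNX family of transcription factors, which bind DNA through a Runt domain together with the shared partner CBFβ. Runx2 is the master regulator of bone formation and of cartilage maturation, Runx1 is best known in blood formation, and Runx3 acts in cartilage, sensory neurons and T cells. Each gene is transcribed from a distal and a proximal start. Peaks were selected by position: a peak belonged to a locus when its midpoint lay in chr17:44300000-45400000 (Runx2), chr16:92300000-93200000 (Runx1) or chr4:134300000-135000000 (Runx3) of the mouse build mm9. The 3 windows held 246 of the 82921 peaks in the lists of 3 libraries, namely 72 of 33915 for Shox2 in limb, 61 of 15091 for Shox2 in palate and 113 of 33915 for Pbx in limb. The deposited list of sites shared by Shox2 and Pbx gave 31 of its 8999 regions, all of them limb Shox2 peaks already counted.

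The study mapped binding by chromatin immunoprecipitation and sequencing (ChIP-seq) in freshly dissected mouse tissue at E12.5 (day of embryonic development). Shox2, a homeodomain factor needed for cartilage growth and maturation in the proximal limb and for the palate, was precipitated through an HA tag from embryos labelled Shox2-HA, in limb and in palate. Pbx, a homeodomain family of the TALE class whose members bind DNA with other homeodomain proteins, was precipitated with an anti-Pbx antibody from limb, with no genotype given in the labels. With 1 library in each group there is no replicate error on any value, and the lists carry no heights or depth. The 4 other libraries of the series (limb Shox2 at E13.5, a limb and palate mix, the untagged control and the input) were not analysed here.

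The gene extents used below are approximate and rounded to 10 kb: 44.63 to 44.95 Mb for Runx2, 92.6 to 92.83 Mb for Runx1 and 134.68 to 134.73 Mb for Runx3. Runx2 and Runx1 lie on the minus strand and Runx3 on the plus strand in the RefSeq table of GRCm38, from which names and gene order alone were taken. Each Runx gene has a Clic gene (chloride intracellular channel family) as a neighbour there: Clic5 for Runx2, Clic6 for Runx1 and Clic4 for Runx3. Supt3, which encodes a subunit of a histone acetyltransferase complex, overlaps Runx2, and the antisense transcript Runx2os3 also does. Peaks were located by position only, and none was assigned to a target gene.

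The RefSeq promoter windows (GRCm38.p6, 250 bases before to 50 after a start, written on the gene's strand) show what the 3 genes share at their outermost starts. The longest stretch common to all 3 is 18 bases long and holds 2 copies of ACCACA, the core that RUNX proteins bind. It is shown here with 3 bases on either side and the copies of ACCACA in capitals.
Runx1: aaacaACCACAgaACCACAagttg
Runx2: aaacaACCACAgaACCACAagtgc
Runx3: cctcaACCACAgaACCACAaggcc
The shared stretch begins 27 bases after the start in Runx1, 22 bases after it in Runx2 and 136 bases before it in Runx3. It occurs in 4 of 32851 promoter windows, on either strand: those of the 3 Runx genes and of Gm16225. The core ACCACA alone occurs in 16.8% of the windows, on either strand.

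The 250 bases before the Runx2 start are printed because Runx2 was the only locus with a limb Shox2 peak within 10 kb of its approximate 5′ end; ACCACA is in capitals.
Runx2: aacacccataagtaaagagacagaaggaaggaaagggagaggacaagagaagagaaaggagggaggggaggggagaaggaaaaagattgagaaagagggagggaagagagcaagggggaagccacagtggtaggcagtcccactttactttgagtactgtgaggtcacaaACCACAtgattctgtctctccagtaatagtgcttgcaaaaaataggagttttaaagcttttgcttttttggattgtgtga
The homeodomain core TAATTA, and TGATTGAT and TGATNNAT, which are sites of the Pbx type (the first is contained in the second), had 0 matches on either strand in the 5 promoter windows of the 3 genes. Of all windows, 5.29% hold TAATTA, 0.746% hold TGATTGAT and 8.85% hold TGATNNAT. TGACAG, the core bound by Meis proteins, was found once, at the outermost start of Runx3, and is in 19.2% of all windows. Whether a listed peak covers these bases could not be determined, because the files use mm9.

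The 3 loci differed most in limb Shox2 and least in limb Pbx. Limb Shox2 had 60 peaks at Runx2, 9 at Runx1 and 3 at Runx3, whose windows span 1100, 900 and 700 kb. Per 100 kb this was 5.45 at Runx2 (95% exact Poisson interval 4.16 to 7.02, which covers counting error only), 1 at Runx1 (0.457 to 1.90) and 0.429 at Runx3 (0.0884 to 1.25). The interval of Runx2 lay above those of both other loci. Runx1 and Runx3 did not differ beyond their counting error.

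Limb Pbx had 45 peaks at Runx2, 38 at Runx1 and 30 at Runx3. The densities were 4.09 (2.98 to 5.47), 4.22 (2.99 to 5.80) and 4.29 (2.89 to 6.12) peaks per 100 kb, which did not differ beyond counting error. Palate Shox2 had 31 positions at Runx2, 16 at Runx1 and 14 at Runx3. Its densities of 2.82 (1.91 to 4), 1.78 (1.02 to 2.89) and 2 (1.09 to 3.36) per 100 kb also had overlapping intervals. A Pbx peak density about equal at the 3 loci thus stood beside a limb Shox2 density that spanned a wide range.

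**Figure D1:**
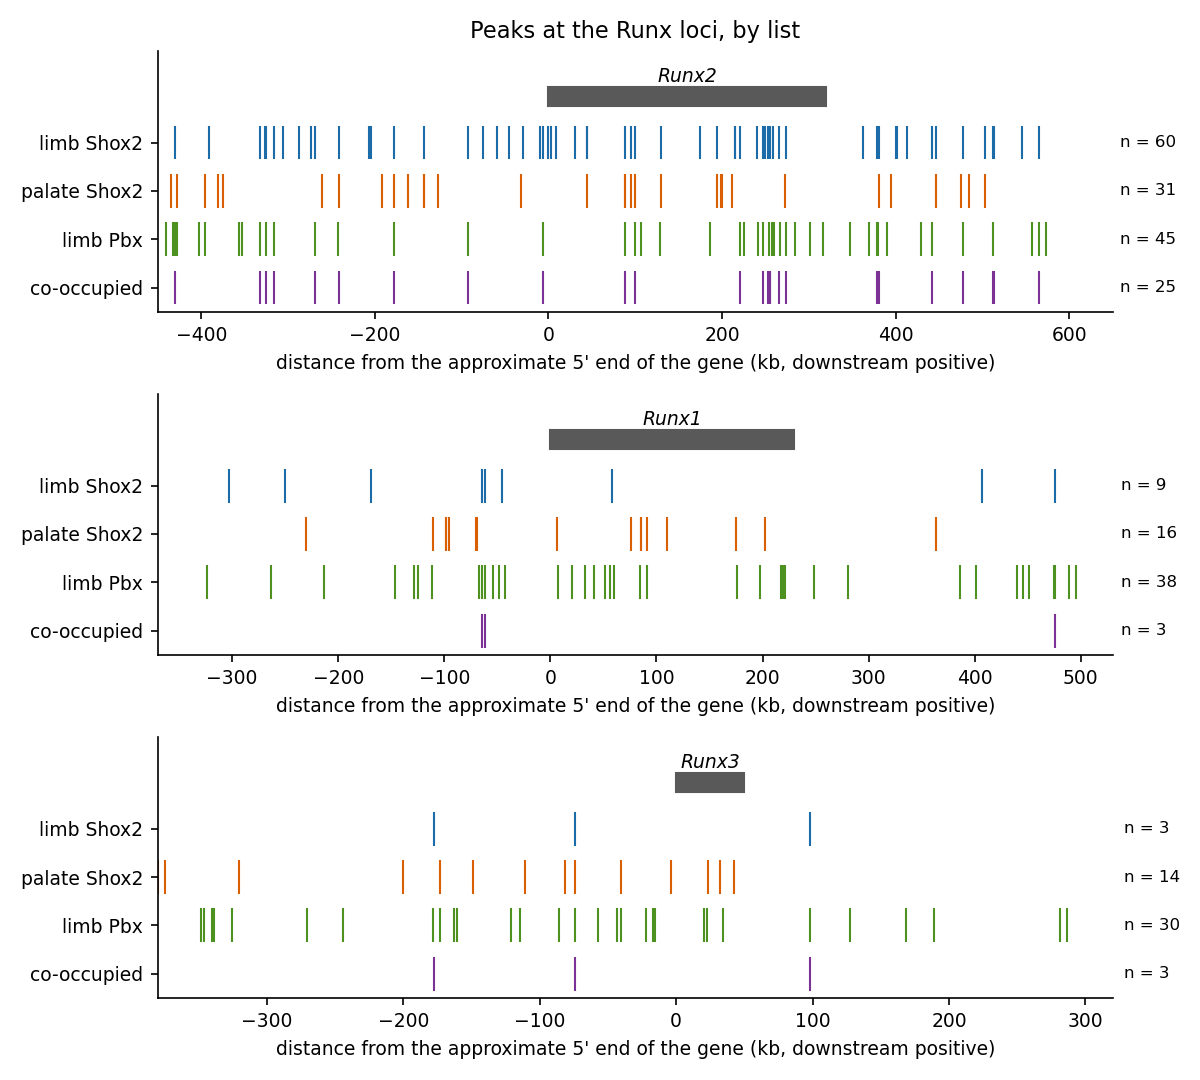
Position of every peak at the Runx2, Runx1 and Runx3 loci, as distance in kb from the approximate 5′ end of the gene (downstream positive). Each vertical line is 1 peak, rows are the lists with their number of peaks at the right, and grey bars are the approximate gene extents; limb Shox2 is dense at Runx2 (60 peaks) and sparse at Runx1 (9) and Runx3 (3).

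**Figure D2:**
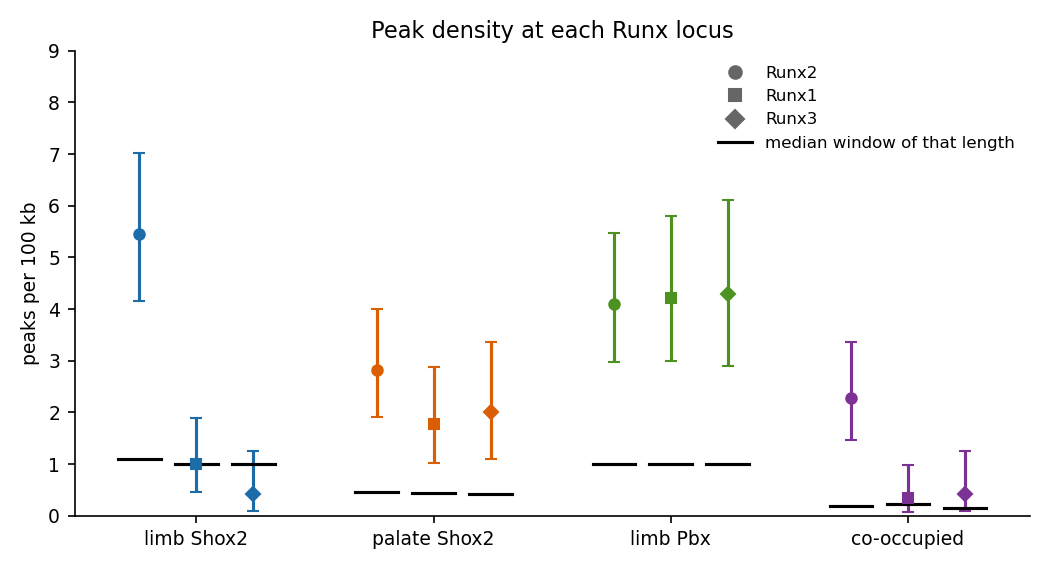
Peaks per 100 kb at each locus with 95% exact Poisson intervals, by list; black bars give the median of all windows of the same length. Limb Pbx lies near 4 at each locus (4.09, 4.22 and 4.29), while limb Shox2 runs from 5.45 at Runx2 to 0.429 at Runx3.

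Each locus was placed among all non-overlapping windows of its own length that held any peak. The median window had 12 limb Shox2 peaks at the length of Runx2, and 21 of 2311 windows (0.909%) had as many as its 60 or more. For palate Shox2 this held for 10 windows (0.433%) and for limb Pbx for 81 (3.5%), so Runx2 stood near the top of all 3 lists. Runx1, with a median window of 9, ranked in the middle for limb Shox2, where 1514 of 2796 windows (54.1%) had at least 9 peaks. It stood high for palate Shox2, where 138 windows (4.94%) had at least 16, and for limb Pbx, where 92 (3.29%) had at least 38.

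Runx3 was in the lower part of the limb Shox2 list, with 2841 of 3554 windows (79.9%) holding at least its 3 peaks, against a median of 7. For palate Shox2, 143 windows (4.02%) had at least 14, and for limb Pbx, 132 (3.71%) had at least 30. All 3 loci were thus rich in limb Pbx and palate Shox2 relative to the median window, and Runx2 alone among the 3 was rich in limb Shox2. The loci were chosen with earlier results known, so these ranks are descriptions and have no test.

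**Figure D3:**
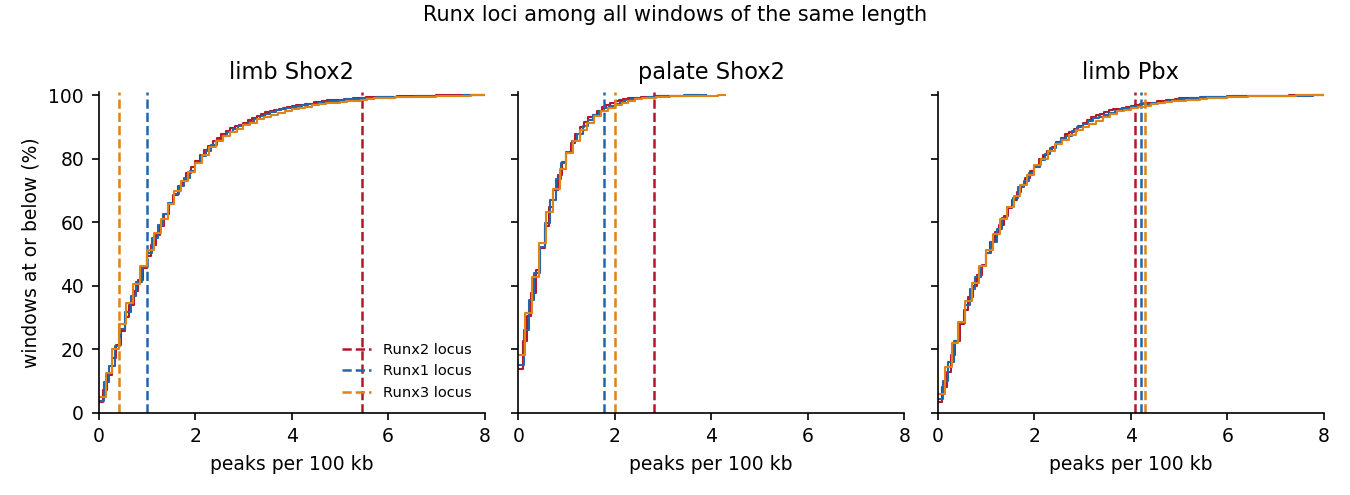
Share of all windows at or below a given peak density (peaks per 100 kb), by list, with 1 step curve per window length; dashed lines mark the Runx loci. The Runx2 line for limb Shox2 lies at 5.45, where 0.909% of windows hold as many peaks or more, and the Runx1 and Runx3 lines lie at 1 and 0.429.

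Limb and palate Shox2 were compared in fixed windows of 1 Mb over the whole genome, to ask where either list was the denser. Of 2259 windows with at least 5 Shox2 peaks, 118 (5.22%) were called toward limb and 243 (10.8%) toward palate (Fisher's exact test of each window against all other peaks, two-sided, with Benjamini-Hochberg adjustment over all windows and a threshold of 0.05). The window of Runx3, chromosome 4 from 134 to 135 Mb, was called toward palate with 3 limb and 16 palate peaks (odds ratio 0.0943, exact test, adjusted p = 0.00014). The window that holds the Runx1 gene, chromosome 16 from 92 to 93 Mb, was also called toward palate with 12 limb and 20 palate peaks (odds ratio 0.271, exact test, adjusted p = 0.00522).

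Neither window at Runx2 was called. Chromosome 17 from 44 to 45 Mb, which holds the gene, had 48 limb and 19 palate peaks (odds ratio 1.11, exact test, adjusted p = 0.909), and 45 to 46 Mb had 26 and 23 (odds ratio 0.501, exact test, adjusted p = 0.0925). Upstream of Runx1 and reaching beyond its locus, chromosome 16 from 93 to 94 Mb had 22 and 17 (odds ratio 0.572, exact test, adjusted p = 0.28). Each test compares 1 library with 1 library, so a difference between tissues cannot be told apart from a difference between libraries or list cutoffs. Neighbouring peaks are not independent, so the p-values are too small. With the limb list shortened to the length of the palate list, the windows of Runx3 and Runx1 were the 2 called, both toward palate, beside 5.36% of all windows called toward palate and 3.54% toward limb. In windows of 500 kb, 3 of 8 at the Runx loci were called toward palate and 0 toward limb, beside 5.25% and 0.969% of all. Within the locus windows themselves, limb Shox2 peaks were 1.94 times the palate positions at Runx2, 0.563 times at Runx1 and 0.214 times at Runx3, beside 2.25 times over the whole lists.

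Within Runx2, limb Shox2 peaks were spread over the gene and both flanks. The approximate gene extent held 23 of the 60 (7.19 per 100 kb, interval 4.56 to 10.8), the 5′ flank 23 (5.11, 3.24 to 7.67) and the 3′ flank 14 (4.24, 2.32 to 7.12), with overlapping intervals. Of the palate positions, 11 lay in the gene extent, 14 in the 5′ flank and 6 in the 3′ flank. Of the limb Pbx peaks, 17, 16 and 12 did. The stretch of 100 kb richest in limb Shox2 was inside the gene, with 14 peaks from chr17:44675769 to 44775955, 7 of them on Pbx. The richest for Pbx, with 12 peaks from chr17:44633035 to 44730279, overlapped it.

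At the 5′ end of Runx2, the limb Shox2 peak chr17:44950726-44950973 lay 0.849 kb from the approximate end, which is itself rounded to 10 kb. The co-occupied peak chr17:44956732-44956901 was 6.82 kb from that end, inside the Pbx peak chr17:44956218-44957471. The nearest palate position, chr17:44981536, was 31.5 kb away. At the 3′ end, the Pbx peak chr17:44633035-44633663 lay 3.35 kb from the rounded end, and the nearest limb Shox2 peak, chr17:44587033-44587229, was 42.9 kb away. The nearest co-occupied peak there, chr17:44675769-44676071, was 45.9 kb away within the gene, and the nearest palate position, chr17:44678015, 48.0 kb away.

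Few limb Shox2 peaks were listed within the approximate extents of Runx1 and Runx3. The Runx1 extent held 1 limb Shox2 peak, chr16:92771907-92772357 (0.435 per 100 kb, interval 0.011 to 2.42), together with 8 palate positions and 14 Pbx peaks. A stretch from chr16:92423337 to 92771907, which takes in most of Runx1, had no limb Shox2 midpoint. It spanned 349 of the window's 900 kb and held 8 of the 16 palate positions and 12 of the 38 Pbx peaks of the locus. The Runx3 extent, 50 kb long, held 0 limb Shox2 peaks (interval 0 to 7.38 per 100 kb), 3 palate positions and 3 Pbx peaks. That interval includes the 7.19 per 100 kb of the Runx2 extent, so this 0 does not set Runx3 apart from it. The Runx3 extent lay inside a stretch from chr4:134606136 to 134778086 with no limb Shox2 midpoint. This spanned 172 of the window's 700 kb and held 5 of the 14 palate positions and 9 of the 30 Pbx peaks. Both stretches were the longest between neighbouring limb Shox2 peaks of their locus. At Runx3, however, the outer parts of the window without a limb Shox2 midpoint were longer, at 202 kb from the lower edge and 222 kb to the upper edge. The longest stretch between neighbouring limb Shox2 peaks at Runx2, chr17:44587229 to 44675769 (88.8 kb), held 0 of the 31 palate positions and 4 of the 45 Pbx peaks. Whether the counts in these stretches differ from their share of the window's length was not tested. Absence from a list does not show that a site was free of the factor.

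At the 5′ end of Runx1 the nearest palate position, chr16:92823964, was 6.04 kb and the nearest Pbx peak, chr16:92821802-92823148, 7.53 kb inside the rounded extent. The nearest limb Shox2 peak there was chr16:92875906-92876159, 46.0 kb upstream, and the nearest co-occupied peak, chr16:92891806-92892303, was 62.1 kb upstream. At the 3′ end, the Pbx peak chr16:92608060-92609395 was 8.73 kb and the palate position chr16:92627708 27.7 kb from the rounded end. The limb Shox2 peak in the gene was 172 kb from that end, and the nearest co-occupied peak, chr16:92354029-92354365, 246 kb. At Runx3 the palate position chr4:134675952 lay 4.05 kb upstream of the rounded 5′ end and the Pbx peak chr4:134664423-134665247 15.2 kb upstream. The nearest limb Shox2 peak was 74.0 kb upstream. At its 3′ end the palate position chr4:134722502 was 7.5 kb and the Pbx peak chr4:134714042-134715205 15.4 kb inside, and the nearest limb Shox2 peak, chr4:134778086-134778503, 48.3 kb beyond.

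The overlap of Shox2 with Pbx asked how often both factors were listed at the same site in limb. An overlap was counted from 1 bp. Over the whole lists, 26.5% of limb Shox2 peaks overlapped a Pbx peak. At Runx2 25 of 60 did (41.7%, 95% exact Clopper-Pearson interval 29.1 to 55.1, counting error only), at Runx1 3 of 9 (33.3%, 7.49 to 70.1) and at Runx3 3 of 3 (interval from 29.2%). All 31 were in the deposited co-occupancy list, which held 31 regions at these loci. Over the genome that list equals the 1 bp overlap of these 2 lists, with 8999 regions in both. Its match is therefore no separate support. From the other side, 23.4% of all Pbx peaks overlapped limb Shox2, and at Runx2 22 of 45 did (48.9%, 33.7 to 64.2). At Runx1 it was 3 of 38 Pbx peaks (7.89%, 1.66 to 21.4) and at Runx3 3 of 30 (10%, 2.11 to 26.5).

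At the deposited widths the Pbx peaks at Runx2 carried limb Shox2 more often than those at Runx1 and Runx3, with intervals that did not overlap. However, only 9 limb Shox2 peaks at Runx1 and 3 at Runx3 were there to be met, beside 60 at Runx2. With 1 Pbx peak met by each, the shares of 38 and 30 Pbx peaks could not have reached the Runx2 interval. The separation is therefore no result apart from the numbers of limb Shox2 peaks. Overlap counts also move with peak width. Limb Pbx peaks were wider at Runx2 than in the whole list (medians 1177 and 897 bp), and so were those at Runx1 (1005 bp) and Runx3 (1071 bp). With every peak set to 200 bp, 12 of 60 limb Shox2 peaks at Runx2 (20%) met Pbx, beside 16.4% over the whole list, and 12 of 45 Pbx peaks (26.7%) met limb Shox2, beside 16.3%. At Runx3 1 of 3 limb Shox2 peaks and 1 of 30 Pbx peaks (3.33%) then met the other factor, and at Runx1 the counts were 3 of 9 and 3 of 38. No intervals were computed at 200 bp, so the separation of the loci is stated for the deposited widths only.

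Windows of 1 Mb were also tested for their share of co-occupied limb Shox2 peaks (Fisher's exact test, two-sided, with Benjamini-Hochberg adjustment over 1947 windows). In the genome 19 windows (0.976%) were called as more co-occupied and 0 as less, where 150 and 65 had an unadjusted p under 0.05. None of the 4 windows at Runx2 and Runx1 was called, although 2 of them had an unadjusted p under the threshold of 0.05. Chromosome 17 from 44 to 45 Mb had 19 of 48 peaks on Pbx (odds ratio 1.83, exact test, adjusted p = 0.443, unadjusted p = 0.0489). Chromosome 16 from 93 to 94 Mb, which reaches beyond the Runx1 locus, had 12 of 22 (odds ratio 3.3, exact test, adjusted p = 0.175, unadjusted p = 0.00601). The window of Runx3 held 3 limb Shox2 peaks, too few to be tested. In windows of 500 kb, 0 of 6 at the Runx loci were called, beside 0.605% of all as more co-occupied. With peaks of 200 bp, Fisher's exact test called 0 of the 1947 windows in either direction, and 81 and 10 had an unadjusted p under 0.05 as more and less co-occupied.

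**Figure D4:**
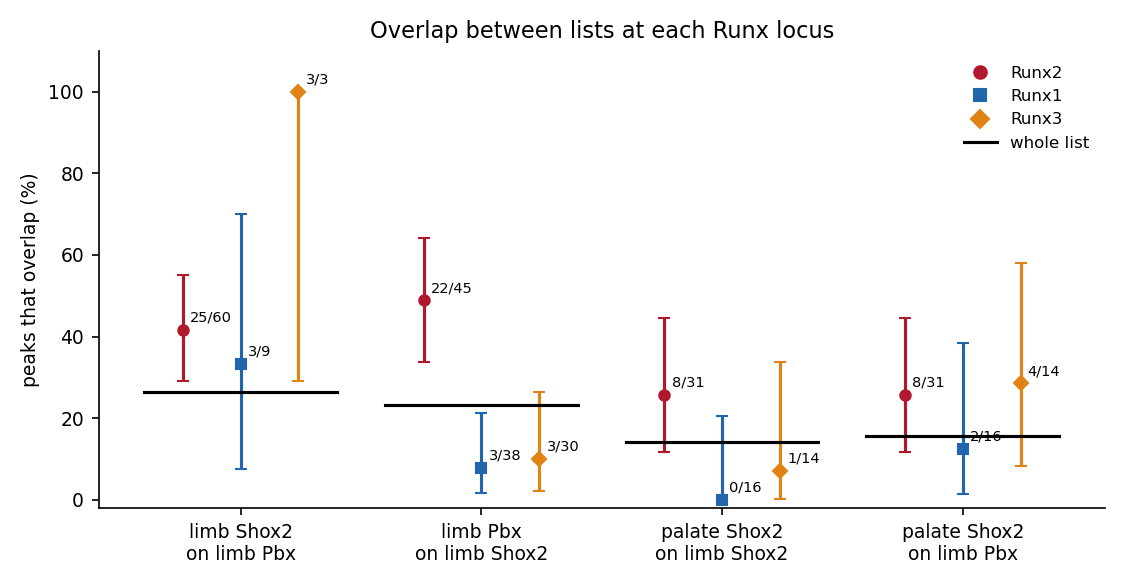
Share of peaks (%) of the first list that overlap the second by at least 1 bp at each Runx locus, with 95% exact Clopper-Pearson intervals; counts stand beside the points and black bars give the whole list. At Runx2 22 of 45 limb Pbx peaks overlapped limb Shox2, beside 3 of 38 at Runx1 and 3 of 30 at Runx3, where 60, 9 and 3 limb Shox2 peaks were listed.

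Co-occupied peaks at Runx2 were wider than the rest, with a median of 331 bp beside 249 bp for the 35 limb Shox2 peaks off Pbx. The whole list gave 326 and 245 bp. The centres of the 25 co-occupied Shox2 peaks lay 209 bp from the centre of the nearest overlapping Pbx peak at the median, and 3 to 1637 bp over all of them, beside a median of 142 bp in the whole list. The widest Pbx peak of the locus, chr17:44693878-44697529, was 3652 bp long, lay within the gene and covered 3 limb Shox2 peaks, the most in any Pbx peak of the 3 loci. The limb Shox2 peak that stood first in its file at Runx2, chr17:44702046-44702850, was 805 bp wide, 248 kb downstream of the 5′ end, and lay in the Pbx peak chr17:44701860-44703596. The Pbx peak that stood first in its file, chr17:44436628-44438495, lay in the 3′ flank, 512 kb from the 5′ end, and covered 2 limb Shox2 peaks.

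At Runx1 the co-occupied peaks were chr16:92354029-92354365 in the 3′ flank and a close pair in the 5′ flank, chr16:92891806-92892303 and chr16:92894013-92894200. The first stood 3.65% down the limb Shox2 file, ahead of the other limb Shox2 peaks of the locus, and the second was the widest, at 498 bp. The widest Runx1 Pbx peak, chr16:92630973-92633019, lay in the gene with 0 Shox2 peaks of either tissue on it. The Pbx peak first in its file, chr16:93152878-93154106, lay in the 5′ flank and also held 0. At Runx3 all 3 limb Shox2 peaks were on Pbx at their deposited widths: chr4:134502338-134502549 and chr4:134605951-134606136 upstream of the gene and chr4:134778086-134778503 beyond it. The last was the widest (418 bp) and stood first in the file. The widest Runx3 Pbx peak, chr4:134499975-134503239, covered the first of them, and the Pbx peak first in its file, chr4:134558050-134559409, covered no Shox2 peak.

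Palate Shox2 positions, each 1 bp wide, were then set against the limb lists. In the whole palate list 14.2% of positions lay in a limb Shox2 peak. At Runx2 8 of 31 did (25.8%, 11.9 to 44.6), at Runx3 1 of 14 (7.14%, 0.181 to 33.9) and at Runx1 0 of 16, which allows a share of up to 18.8%. All of these intervals include the whole list's share. Counting those inside a peak, 14 of 31 palate positions at Runx2 lay within 1 kb of a limb Shox2 peak (45.2%, beside 21.6% in the whole list). The 14 include the 8 that overlapped. At Runx1 0 of 16 and at Runx3 1 of 14 lay so near. Median distances were 1.62 kb at Runx2, 33.4 kb at Runx1 and 46.3 kb at Runx3. Limb Shox2 was also denser at Runx2, and its part in these distances was not tested.

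Counted by limb peak, 8 of 60 limb Shox2 peaks at Runx2, 0 of 9 at Runx1 and 1 of 3 at Runx3 held a palate position, beside 6.28% of all limb Shox2 peaks.

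In limb Pbx peaks lay 15.6% of all palate positions. At Runx2 8 of 31 did (25.8%, 11.9 to 44.6), at Runx1 2 of 16 (interval 1.55 to 38.3%) and at Runx3 4 of 14 (28.6%, 8.39 to 58.1), all with intervals that include the whole list's share. Of the limb Pbx peaks, 7 of 45 at Runx2, 2 of 38 at Runx1 and 4 of 30 at Runx3 held a palate position, beside 6.62% of all limb Pbx peaks. Within 1 kb of a Pbx peak were 9 of 31 positions at Runx2, 5 of 16 at Runx1 and 4 of 14 at Runx3. These shares were 29.0, 31.3 and 28.6%, beside 18.9% of all palate positions. The median distance from a palate position to the nearest Pbx peak was 6.75 kb at Runx2, 2.79 kb at Runx1 and 3.62 kb at Runx3, beside 14.1 kb in the whole list. Limb Pbx was also denser at all 3 loci than in the median window, and its part in these shares and distances was not tested.

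Sites in all 3 of the lists numbered 3 at Runx2, 1 at Runx3 and 0 at Runx1, where 2.30% of the limb Shox2 list is in this class. The first at Runx2, chr17:44569233-44570292, was the widest limb Shox2 peak of the locus (1060 bp) and stood 2.57% down the limb file. Its palate position, chr17:44569720, lay 42.5 bp from its centre but 87.1% down the palate file, and the Pbx peak chr17:44569092-44570486 enclosed it, in the 3′ flank of the gene. The second, chr17:44850089-44850267, lay within Runx2, 99.8 kb from the 5′ end. It was narrow (179 bp), with the palate position chr17:44850196 18 bp from its centre and the Pbx peak chr17:44849752-44851092 around it.

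The third at Runx2, chr17:45191583-45191946, lay 242 kb upstream of the gene, held the palate position chr17:45191845 and was enclosed by the Pbx peak chr17:45191151-45192731. At Runx3 the site was chr4:134605951-134606136, 74.0 kb upstream of the gene. The palate position chr4:134606079 lay 35.5 bp from its centre, and the Pbx peak chr4:134605174-134606448 enclosed it. This was also the only overlap of limb and palate Shox2 at Runx3.

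Limb and palate Shox2 without Pbx met at 5 further sites, all at Runx2. They made up 5 of its 60 limb Shox2 peaks, beside 3.97% of the whole limb list, and 5 of its 31 palate positions, beside 9.07% of the whole palate list. Inside the gene these were the palate positions chr17:44755350, chr17:44820160 and chr17:44855359, in limb peaks of 193, 208 and 996 bp. The others were chr17:44503546 in the 3′ flank, in a peak of 554 bp, and chr17:45093781 in the 5′ flank, in a peak of 254 bp. The palate position chr17:44905661 was the base next to a limb Shox2 peak and so did not count.

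Palate positions on Pbx but outside limb Shox2 numbered 5 of 31 at Runx2, 2 of 16 at Runx1 and 3 of 14 at Runx3, beside 10.4% of the whole palate list. At Runx2, chr17:44861783 and chr17:44862129 shared the Pbx peak chr17:44861033-44862513, within the gene, which also held a limb Shox2 peak 210 and 556 bp from them. The Pbx peak chr17:45127673-45128679 likewise held the palate position chr17:45127905 and a limb Shox2 peak 130 bp apart. The other 2, chr17:45346179 and chr17:45378154, lay in the far 5′ flank in Pbx peaks with 0 limb Shox2 peaks. The first of these stood 0.696% down the palate file, ahead of every other palate position of the locus.

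At Runx1 the palate positions on Pbx, chr16:92654956 and chr16:92739025, were both within the gene. Their Pbx peaks, chr16:92653905-92655149 and chr16:92738289-92739969, held 0 limb Shox2 peaks, and the nearest limb Shox2 peak was 116951 and 32882 bp away. At Runx3, chr4:134703013 lay within the gene, 23.0 kb from the 5′ end, in the Pbx peak chr4:134701534-134704173. The other 2, chr4:134506915 and chr4:134639602, lay upstream in the Pbx peaks chr4:134506153-134507313 and chr4:134639372-134640195.

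The place of a peak in its file was described as a possible ranking, since peak widths fall down both limb files. Palate positions are all 1 bp wide, so this ground for a ranking is lacking in the palate file. Its positions had medians 21.7% down the list at Runx2, 28.3% at Runx1 and 31.3% at Runx3. In the first 10% of the palate file were 7 of 31 positions at Runx2 (22.6%), 1 of 16 at Runx1 (6.25%) and 4 of 14 at Runx3 (28.6%). Limb Shox2 peaks had medians of 49.1% at Runx2, 66.9% at Runx1 and 58.2% at Runx3, with 5 of 60, 1 of 9 and 0 of 3 in the first 10%. Limb Pbx peaks stood higher at Runx2 (median 26.8%, 12 of 45 in the first 10%) than at Runx1 (44.8%, 3 of 38) and Runx3 (50.8%, 0 of 30). These differences were not tested. The first palate positions by file order were chr17:45346179 at Runx2, chr16:92899760 at Runx1 (6.09% down the file) and chr4:134300081 at Runx3 (0.689%).

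**Figure D5:**
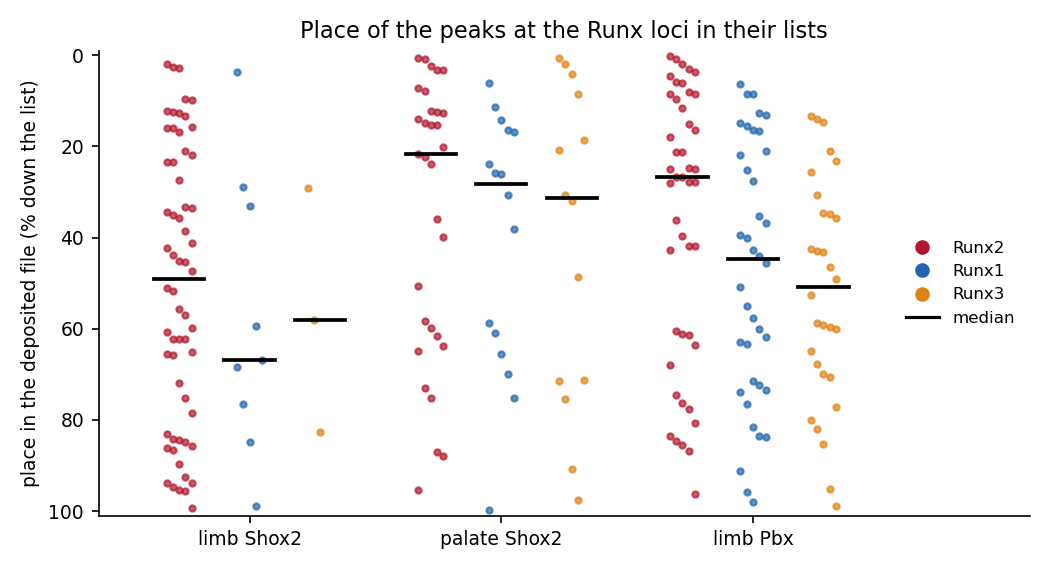
Place of each peak of the Runx loci in its deposited file, as % down the list (0 at the top), by list and locus; points are peaks, spread sideways for visibility, and black bars are medians. Palate positions have medians of 21.7, 28.3 and 31.3%, and limb Pbx peaks have 26.8% at Runx2, 44.8% at Runx1 and 50.8% at Runx3.

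The position first in the palate file at Runx3 lay only 0.0805 kb inside the lower edge of its window, and the next palate position outside that edge was 77.5 kb away. At the other edges the last peak inside was 9.82 to 277 kb from the edge, over the 3 libraries' lists.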

How the data were processed

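ChIP-seq peak lists of 3 libraries were used, all at E12.5, with 1 library per group. Per the submitters' processing notes, the authors used Bowtie and MACS2 with mm9; their versions, cutoffs and any pooling were not given in the sources used here. Deposited lists hold a chromosome, start and end for each peak, with no score, so depth is unknown. The limb Shox2 and limb Pbx lists are equal in length, at 33915 peaks each, beside 15091 for palate Shox2. Whether the limb lists were cut to a common length is not stated in the sources used here. Coordinates are printed 1-based. Width fell with line number (Spearman's rho across peaks -0.58 for limb Shox2, -0.51 for limb Pbx). Loci, gene extents and lists were chosen with earlier results of these data known. Peaks were named by rule: in each locus the widest and the first in file, those nearest to each gene end, and every palate position on a limb peak. The base next to a limb peak and the stretches without limb Shox2 were picked after their values were seen.

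Overlap was counted from 1 bp. Intervals are 95% exact Clopper-Pearson or Poisson, and 0.5 was added to each cell of an odds ratio. Where the text gives an upper bound for a share of 0, it is 3 counts. A density of 0 kept its exact Poisson interval. The co-occupied windows needed at least 5 limb Shox2 peaks. Code was tested on simulated data. ACCACA and the shared stretch were searched after the sequences were seen. Gene-level counts, other osteogenic genes and genes of like pattern were not analysed here, for want of an mm9 annotation. Python 3.11.15, NumPy 2.4.6, SciPy 1.17.1 and matplotlib 3.10.9 were used.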

Additional observations from a re-analysis of the deposited data

How the results depend on the processing

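With every peak set to 200 bp, the share of limb Shox2 peaks on Pbx at Runx2 fell to 20% and that of Pbx peaks on limb Shox2 to 26.7%. For the window of chromosome 17 from 44 to 45 Mb, the log2 odds ratio of co-occupied against other limb Shox2 peaks was then -0.12 instead of 0.87, not called under either setting; shorter peaks overlap less by construction, and why the sign changed was not tested. With each list cut to its first 50% by file order, limb Shox2 on Pbx at Runx1 was 0% (0 of 3), beside 24.4% over the whole lists so cut. Pbx on limb Shox2 at Runx1 was 0% (0 of 20), beside 22.8%. Palate Shox2 in limb Shox2 at Runx3 was 0% (0 of 9), beside 13.7%. Palate Shox2 on Pbx at Runx2 was 10% (2 of 20), beside 12.2%. Limb Shox2 on Pbx at Runx2 was 50% (15 of 30). Fewer peaks are left by construction, and why the shares moved was not tested. With the gene extent only, limb Shox2 on Pbx and Pbx on limb Shox2 at Runx1, and Pbx on limb Shox2 and palate Shox2 in limb Shox2 at Runx3, were 0% (0 of 1, 0 of 14, 0 of 3 and 0 of 3), and Runx3 had no limb Shox2 peak to give a share. With the limb list shortened to the length of the palate list, the windows of Runx3 and Runx1 were called toward palate with adjusted p = 0.0108 and p = 0.0486 (two-sided Fisher's exact test). Windows of 500 kb gave 3 called toward palate and 0 toward limb. No paired analysis was possible because replicates are lacking, and for the same reason no library was left out. Since depth is unknown, an absent peak and a peak under the authors' cutoff cannot be told apart.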
